A study of Mus musculus with 4 samples.

Results

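Regulatory T cells are CD4 T cells that hold other immune cells in check and whose fate depends on the transcription factor Foxp3. They take up interleukin 2 through its high-affinity receptor, strip costimulatory ligands from antigen-presenting cells with CTLA-4, and release suppressive factors such as interleukin 10. In tumours they often have an activated form, with the chemokine receptor CCR8 and TNF receptors such as OX40, 4-1BB and GITR on their surface.

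The cells described here came from B16 melanoma, a transplantable mouse skin tumour, grown in the flank of male C57BL/6 mice and dissected on day 12. CD45+ leukocytes were sorted from them. Tumour suspensions of wild-type mice were mixed into 1 pool, and those of ATPIF1 knock-out mice into another; the labels give 6 mice without saying whether this is per genotype. ATPIF1 is the mitochondrial inhibitor of the F1Fo-ATPase, the enzyme that makes ATP. Each pool gave 1 library of 10x 5′ single-cell RNA and 1 of T cell receptor sequences, so the genotypes have no replicates. Differences between them have no test, and their 95% intervals cover counting error only.

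Foxp3+ T cells were chosen by their own UMIs (unique molecular identifiers, each standing for 1 counted RNA molecule). A barcode needed at least 1 UMI of Foxp3, at least 1 of Cd3d, Cd3e or Cd3g, none of Cd8b1, and none of Csf1r, Xcr1 or Cd79a, which mark CD8 T cells, macrophages, dendritic cells and B cells. This gave 81 cells, 36 in the WT library and 45 in the KO library, of 7581 barcodes that passed the cell filters (4370 and 3211). Of the 57 and 71 Foxp3+ barcodes at that point, 8 in each library had no Cd3 UMI, 6 and 11 held Csf1r, Xcr1 or Cd79a, and 7 in each held Cd8b1. The median was 3870 UMIs per cell in WT and 4761 in KO, and the cells summed to 171870 and 284438 UMIs. The largest single cell held 7.32% of the WT sum and 8.46% of the KO sum. The 2 libraries shared 29 barcodes, where the product of their sizes over the barcode list gives 19.0. No barcode was a Foxp3+ T cell in both libraries.

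The comparison class was conventional CD4 T cells, with Cd3 and Cd4 UMIs but none of Foxp3, Cd8b1, Csf1r, Xcr1 or Cd79a (58 WT and 105 KO cells, median 2758 and 2004 UMIs). Foxp3+ T cells were thus the deeper class, and a deeper cell has more chances to show a Foxp3 UMI. Levels are given as CPM, the UMIs of a gene per 1e6 UMIs summed over a class in 1 library.

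Foxp3 itself, which chose the cells, stood at 436 CPM in WT (75 UMIs) and 313 CPM in KO (89 UMIs). A single UMI admitted 15 of the 36 WT cells and 23 of the 45 KO cells, and the highest cell held 7 and 10. Foxp3 UMIs were rare elsewhere: 0.308% of Csf1r+ cells in WT (5 of 1623, median depth 7703 UMIs) and 0.377% in KO (4 of 1060, median 6488 UMIs) had one, and empty droplets held 3.57 and 9.33 CPM. T cells with Cd8b1 had a Foxp3 UMI in 3.15% (7 of 222) and 2.01% (7 of 349). These 14 cells, left out by the rule, also held Ctla4 at 398 CPM in WT and 351 CPM in KO.

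The cells carried other markers of regulatory T cells, which the rule did not use. These markers and the gene lists below were chosen with earlier results of these data known, so they are no independent check. Of the 4 genes Ctla4, Tnfrsf4 (OX40), Ikzf2 (the transcription factor Helios) and Tnfrsf18 (GITR), at least 3 were detected in 72.2% of the WT cells (26 of 36; 54.8 to 85.8%, Clopper-Pearson) and 91.1% of the KO cells (41 of 45; 78.8 to 97.5%). Among conventional CD4 T cells this held for 1 of 58 and 11 of 105. None of the 4 was seen in 2 WT cells and 1 KO cell. With each cell thinned to 1000 UMIs the counts were 6 of 36 and 17 of 45 against 1 of 58 and 1 of 105. Cells admitted by 1 Foxp3 UMI carried the markers too. In WT they held Ikzf2 at 770 CPM and Ctla4 at 479 CPM, where cells with 2 or more Foxp3 UMIs held 317 and 388 CPM. In KO the order was the other way, with Ikzf2 at 440 and 627 CPM and Ctla4 at 728 and 1016 CPM. Just outside the threshold, conventional CD4 T cells held Ctla4 at 74.9 and 203 CPM.

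RNA of some other cell types was nearly absent, and that of antigen-presenting cells was not. Cd4 was at 122 and 169 CPM. Cd8a was absent in WT and had 2 UMIs in 1 KO cell. The 5 NK cell markers summed to 0 UMIs in WT and 1 in KO, and the 5 melanoma markers to 0 and 1. The 6 dendritic cell markers summed to 3375 CPM in WT and 3797 CPM in KO, against 1181 and 5162 CPM in conventional CD4 T cells. Of these markers, Xcr1 was at 0 by the selection rule, and Clec9a was at 0 in Foxp3+ T cells of both libraries. Most of this was MHC class II RNA: Cd74, its invariant chain, had 448 UMIs in WT, 199 of them in 1 cell, and 839 in KO, 311 of them in 1 cell. The 5 B cell markers summed to 163 and 285 CPM, with Cd79a at 0 by the rule and Ms4a1 also at 0. The 7 monocyte and macrophage markers summed to 512 CPM in WT and 130 CPM in KO, with Csf1r at 0 by the rule and Adgre1 at 0 in both. The part of this RNA in the results below was not tested, apart from the values given without myeloid-marked cells. In WT, 1 cell held 57 of the 66 UMIs of Lyz2, the lysozyme gene of myeloid cells, and 1 cell held all 21 UMIs of Vcan, a monocyte gene.

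**Figure D1:**
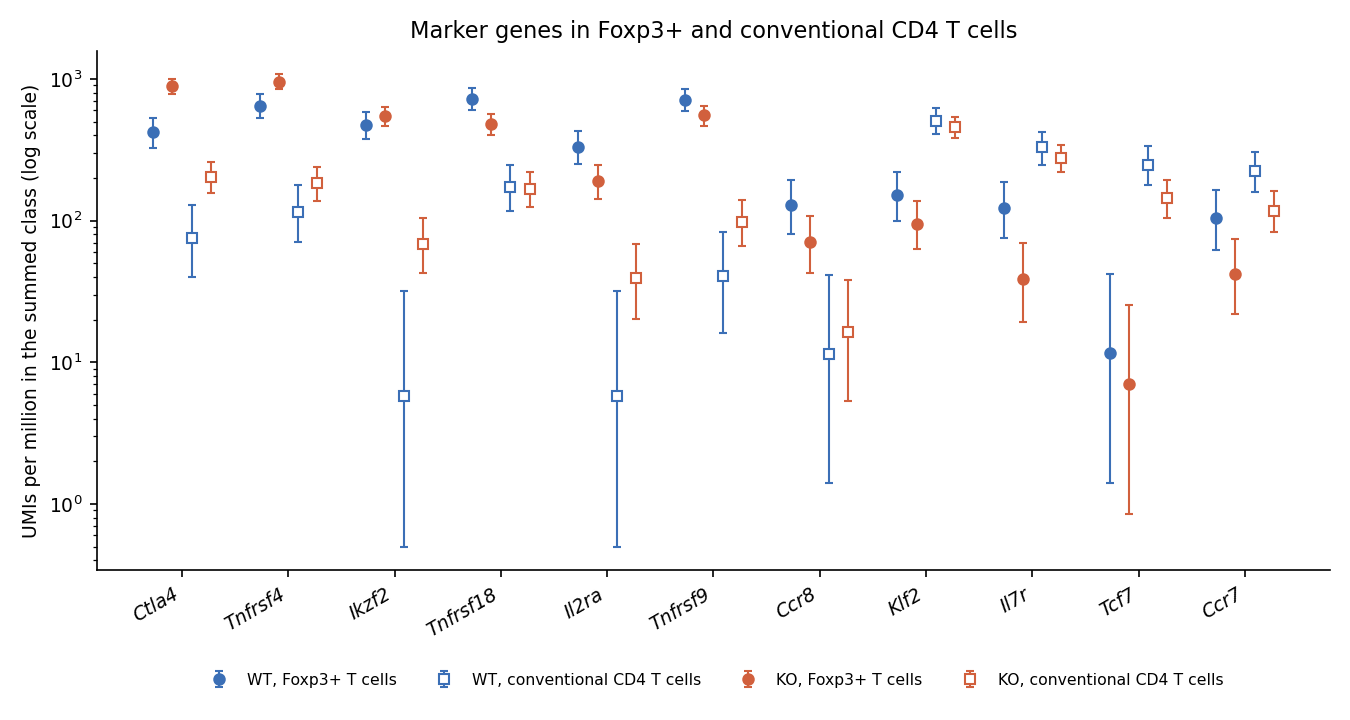
CPM of 11 genes in Foxp3+ T cells (filled circles) and conventional CD4 T cells (open squares), WT in blue and KO in orange, on a log axis; bars are exact 95% Poisson intervals, with lower ends drawn no lower than 0.5 CPM. Ctla4 to Ccr8 are higher in Foxp3+ T cells of both libraries, and Klf2 to Ccr7 are lower.

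Foxp3+ T cells made up a similar part of the T cells in both libraries. They were 4.85% of 743 T cells in WT (3.42 to 6.65%) and 4.49% of 1003 in KO (3.29 to 5.96%), a log2 ratio of -0.11 (-0.78 to 0.56). Among T cells without Cd8b1 the shares were 6.91% and 6.88%. As a share of all barcodes kept they were 0.824% and 1.40%, a log2 ratio of 0.77 (0.10 to 1.44). Of the 3 denominators, only the last, which also counts myeloid and B cells, gave an interval that excluded 0.

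UMIs of the targeted gene, Atpif1 (chromosome 4, 132530555 to 132535450, RefSeq on GRCm38.p6), were not rarer in KO than in WT. Foxp3+ T cells held 48 UMIs of it in WT (279 CPM, in 25 cells) and 100 in KO (352 CPM, in 32 cells), which is a log2 ratio of 0.33 (-0.18 to 0.86). The allele is not given in the labels, and a 5′ tag can lie outside a deleted stretch, so this count does not check the genotype. Every direction below therefore compares the library labelled KO with the WT library.

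T cell receptor sequences covered part of the cells. The share with at least 1 productive, high-confidence chain was 63.9% in WT (23 of 36; 46.2 to 79.2%) and 46.7% in KO (21 of 45; 31.7 to 62.1%), against 39.7% and 24.8% of the shallower conventional CD4 T cells. Both chains were found in 17 and 10 cells. No 2 of these cells had exactly the same set of chains. In WT, 2 of them shared a TRA and a beta chain but counted as different, since 1 also held a second TRA. By that strict definition, the upper Clopper-Pearson bound of the share in repeated clonotypes was 19.5% in WT and 30.8% in KO. By the beta chain (TRB) alone, 20 clonotypes were seen among 22 WT cells and 15 among 16 KO cells, with 1 repeated in each library. Cells in repeated TRB clonotypes were 13.6% of Foxp3+ T cells in WT (2.91 to 34.9%) and 12.5% in KO (1.55 to 38.3%). The same share was 15% and 23.8% among conventional CD4 T cells, within those intervals, and 2.99% and 65.9% among CD8 T cells.

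The chains of the repeated WT clonotype had a counterpart in the KO library that differed by 1 base each. The CDR3 is the loop of the receptor chain that meets the peptide, and is built from rearranged gene segments, so it has no single place in the genome. The sequences are shown because the same CDR3 amino acids were found in both libraries; they run 5′ to 3′, with the first and last codon in capitals.
WT TRB, TRBV10 and TRBJ2-5, 3 Foxp3+ T cells: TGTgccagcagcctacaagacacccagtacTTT
KO TRB, TRBV10 and TRBJ2-5, 1 Foxp3+ T cell: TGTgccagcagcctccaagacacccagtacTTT
WT TRA, TRAV13-2 and TRAJ26, 2 of those 3 cells: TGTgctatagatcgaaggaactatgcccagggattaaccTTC
KO TRA, TRAV13-2 and TRAJ26, the same KO cell: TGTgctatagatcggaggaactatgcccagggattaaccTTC
The substitutions were A15C in TRB and A15G in TRA, counted from 1 at the first base of the CDR3 with the WT base first. Both pairs had the same amino acids in the deposited tables. No CDR3 of either chain had the same bases in Foxp3+ T cells of both libraries. Over all T cells, 3 of 186 WT and 134 KO TRB amino acid sequences were shared between libraries, and none of them with the same bases. This pair was singled out after its values were seen. The TRB chains rested on 3 to 5 UMIs a cell in WT and on 8 to 10 in KO, where 1 Foxp3+ and 1 CD8 T cell held the chain, and the TRA chains on 1 to 4 and 3. The third WT cell gave no TRA. One of the 2 WT cells with this TRA also held a second one, TRAV9N-4 with TRAJ42.

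Beta chains were otherwise rarely shared. The repeated KO clonotype joined 2 Foxp3+ T cells, which gave no TRA:
KO TRB, TRBV12-2+TRBV13-2 (as deposited) and TRBJ1-1: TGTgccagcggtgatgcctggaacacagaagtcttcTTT
No TRB of a Foxp3+ T cell was found in a conventional CD4 T cell of its library. The CD8 T cell with the KO TRBV10 chain had 22234 UMIs and was called so on 1 Cd8b1 UMI, with 0 Foxp3 and 7 Ikzf2 UMIs. In WT, 1 TRB was shared with a T cell that had no Foxp3, Cd4 or Cd8b1 UMI but 9 of Ctla4:
WT TRB, TRBV1 and TRBJ1-6: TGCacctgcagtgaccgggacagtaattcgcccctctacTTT

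Gene expression was then compared between Foxp3+ and conventional CD4 T cells, with the 2 libraries as pairs. Of 3092 genes tested, 158 were higher in Foxp3+ T cells (5.11% of those tested) and 212 lower (6.86%), at an adjusted p under 0.05 in edgeR's quasi-likelihood test. The fit has 1 residual degree of freedom, and its prior degrees of freedom, the weight of the spread shared over genes, were infinite. A gene's own spread between the 2 libraries thus did not enter its p-value. The p-values rest on the spread between these 2 libraries as shared over genes. With a minimum of 2000 UMIs and 800 genes per barcode, where the prior degrees of freedom were 4.07, no gene passed (386 had an unadjusted p under 0.05). DESeq2 called 13 higher and 23 lower.

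The genes of the regulatory T cell identity list that could be tested were mostly higher: 8 of 13 rose and none fell, with a median log2 fold change of 1.46 against -0.0053 over all genes. By DESeq2, 5 of the 13 rose. Ikzf2 was at 471 CPM in WT and 545 CPM in KO Foxp3+ T cells and at 5.76 and 68.7 CPM in conventional cells. Its log2 fold change was 3.43 ± 0.34 (SE; adjusted p = 5.78e-21, edgeR). Il2ra, the alpha chain of the interleukin 2 receptor, was at 332 and 190 CPM against 5.76 and 39.2 CPM, and rose by 2.95 ± 0.38 (adjusted p = 5.77e-12). Neither gene's Foxp3+ values overlapped its conventional values. Tnfrsf4 rose by 2.20 (646 and 956 CPM against 115 and 183 CPM), Ctla4 by 2.04 (419 and 889 CPM against 74.9 and 203 CPM) and Tnfrsf18 by 1.54 (721 and 482 CPM against 173 and 167 CPM). Tigit, an inhibitory receptor, Capg, an actin-capping protein, and Izumo1r, a folate receptor family member, also rose, by 1.96, 1.46 and 1.28. Icos, a costimulatory receptor common on activated T cells, did not pass: it was at 390 and 267 CPM against 265 and 330 CPM. Lrrc32, which carries latent TGF-beta on the regulatory T cell surface, was too low to test, with 18 UMIs in Foxp3+ T cells and none in conventional cells, or at least 6.30-fold higher when 3 UMIs over both libraries are taken as the floor.

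Genes of the activated form in tumours were higher. Of 17 tested genes of the tumour regulatory T cell activation list, 11 rose and none fell in edgeR (median 1.54), and DESeq2 called 3. Tnfrsf9, which encodes the costimulatory receptor 4-1BB, was at 716 and 552 CPM against 40.3 and 98.1 CPM (log2 fold change 2.86 ± 0.30, adjusted p = 3.54e-18). Klrg1, a receptor of terminally differentiated lymphocytes, was at 221 and 77.3 CPM against 5.76 and 13.1 CPM and rose by 3.32. Ccr8 rose by 2.38, from 11.5 and 16.3 CPM to 128 and 70.3 CPM. Gzmb, the granule protease granzyme B, rose by 2.36, but 34 of its 47 KO UMIs were in 1 cell. The list shares genes with the identity list, among them Tnfrsf4, Tnfrsf18 and Tigit.

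Genes of resting lymphocytes moved the other way. Of 10 tested, 9 fell and none rose in edgeR (median -1.90), and 3 fell by DESeq2. Tcf7, the transcription factor TCF-1 of naive and memory T cells, was at 11.6 and 7.03 CPM against 248 and 144 CPM, and fell by 4.54 on the log2 scale (SE 0.50, adjusted p = 1.12e-16). Klf2, which drives genes of recirculation through lymph, fell by 2.25 (151 and 94.9 CPM against 507 and 458 CPM), and Il7r, the interleukin 7 receptor, by 2.30 (122 and 38.7 CPM against 328 and 275 CPM). Bcl2, an inhibitor of cell death, fell by 2.81.

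The balance of these 2 lists held cell by cell. Activation genes held more UMIs than resting genes in 35 of 36 WT and 43 of 45 KO Foxp3+ T cells and fewer in none; among conventional CD4 T cells they held more in 22 of 58 and 36 of 105. Activation genes ranged from 15.1 to 169 UMIs per 10000 in WT cells, with a median of 56.3, and from 14.5 to 139 in KO cells, with a median of 45.0. Resting genes were at 0 in 9 WT and 8 KO cells, and the highest cell had 27.8 and 30.9 UMIs per 10000. The classes overlap: 17 of 36 WT and 23 of 45 KO Foxp3+ T cells had no more activation UMIs per 10000 than the highest conventional cell, which had 52.4 and 50.2.

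**Figure D2:**
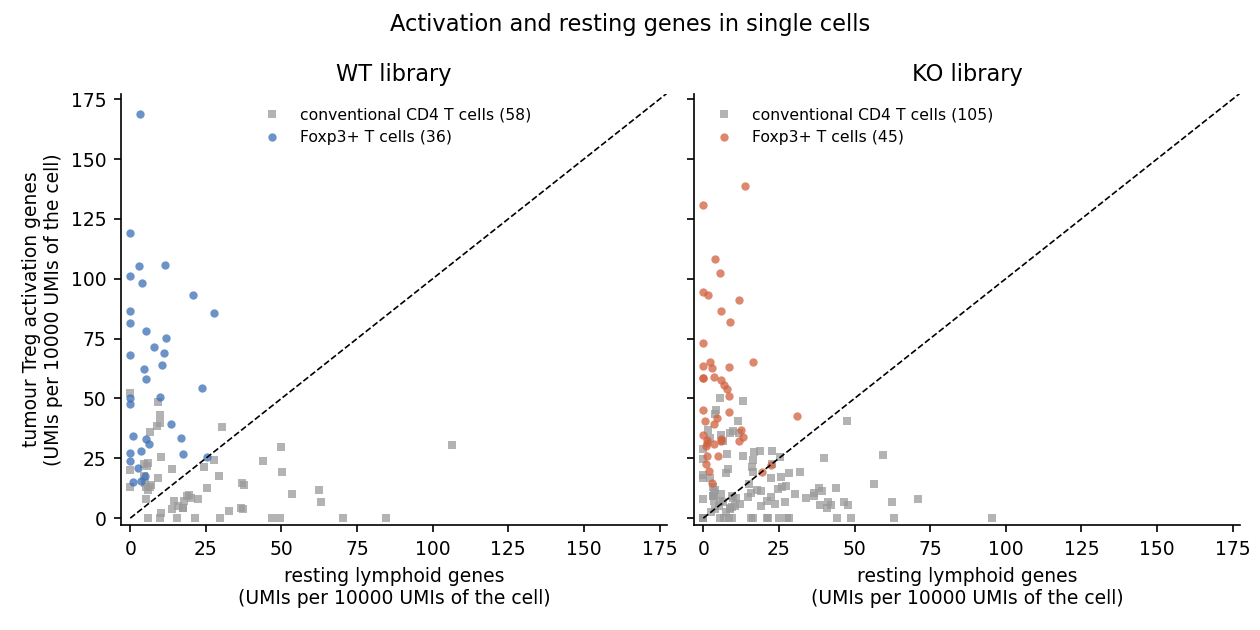
Each point is 1 cell, with UMIs of resting lymphoid genes (x) and tumour regulatory T cell activation genes (y) per 10000 UMIs of that cell, for Foxp3+ T cells (coloured) and conventional CD4 T cells (grey) of the WT (left) and KO (right) libraries; the dashed line marks equal values. No Foxp3+ T cell lies below the line, while 36 WT and 59 KO conventional cells do.

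Suppressive effector genes rose in part. Of 11 tested, 7 rose and 1 fell in edgeR, and 2 rose and 1 fell by DESeq2. Areg, the epidermal growth factor family ligand amphiregulin, rose by 1.82 (291 and 478 CPM against 115 and 78.5 CPM). Fgl2, a secreted suppressor, rose by 1.63, Itgav, an integrin that helps release active TGF-beta, by 1.65, and Lgals1, galectin 1, by 1.29. Lgals3, galectin 3, which macrophages also make, fell by 1.89. Tgfb1 did not pass, at 227 and 214 CPM against 213 and 183 CPM. Penk, the enkephalin precursor, was at 303 and 91.4 CPM against 0 and 144 CPM (adjusted p = 0.0792); in WT, 32 of its 52 UMIs were in 1 of the 6 cells that had any.

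Of 25 tested transcription factors, 1 rose, Ikzf2, a share near the 5.11% of all genes, and 5 fell, Tcf7, Lef1, Satb1, Foxp1 and Id3, which are factors of resting or early T cells. Batf, Irf4, Maf, Rora, Gata3 and Prdm1 did not pass. Against conventional T cells taken without the Cd4 criterion, 7 of 29 rose and 8 fell. Of 15 tested chemokine receptor and homing genes, 1 rose (Ccr8), near the 5.11% of all genes, and 7 fell, against 6.86% of all genes. Among the 7 was Cxcr6, a receptor of tissue-resident T cells, at 46.5 and 28.1 CPM against 104 and 124 CPM (fell by 1.92). Of 15 tested targets of T cell receptor signalling, 1 rose (Rgs16), also near the 5.11% of all genes, and 6 fell. Of 16 immediate early and heat shock genes, which also respond to tissue dissociation, 12 fell and none rose. Of 9 tested helper cytokine genes, 4 fell and none rose, with Cd40lg at 5.82 and 14.1 CPM against 121 and 154 CPM (fell by 3.84), Tnfsf8, the CD30 ligand, with 1 UMI in all against 35, and Ifng at 40.7 and 63.3 CPM against 150 and 347 CPM (fell by 2.47).

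Genes of the cell cycle mostly rose. Of 19 tested, 18 rose and none fell (median log2 fold change 1.65). Among them Mki67 rose by 2.29 and Top2a by 1.65, and DESeq2 called 1 of the 19. With cells thinned to 1000 UMIs, 5 of the list could be tested, 1 rose and the median was 0.45. Of the other genes with large rises, Clspn, a replication checkpoint protein, had 25 UMIs in Foxp3+ T cells and none in conventional cells, or at least 8.76-fold higher by the same floor. Pclaf, a PCNA-binding protein, was at 384 and 330 CPM against 0 and 55.6 CPM. Birc5, the mitotic protein survivin, rose by 3.28, Lig1, the replication ligase, by 3.43, and Tk1, thymidine kinase, by 2.97. Ccna2, a cyclin, and Ncapd2, a condensin subunit, also rose. The share with a UMI of Mki67 or Top2a was 27.8% in WT (10 of 36; 14.2 to 45.2%) and 37.8% in KO (17 of 45; 23.8 to 53.5%), against 6 of 58 and 9 of 105 conventional cells. These cells were also the deepest, with medians of 8074 and 10340 UMIs against 3483 and 3383 UMIs in the other Foxp3+ T cells. Thinned to 1000 UMIs, Mki67 was seen in 2 of 36 and 7 of 45 Foxp3+ T cells and in 0 of 58 and 1 of 105 conventional cells.

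Without the cells that held an Mki67 or Top2a UMI, which removes the cells with most cell cycle RNA and leaves fewer genes to test, 39 genes were higher and 26 lower. The counts were then 0 of 6 tested cell cycle genes, 7 of 12 identity genes and 9 of 17 activation genes higher, and 4 of 7 resting genes lower. Of the lists that fell in part, 0 of 14 receptor signalling targets (median 0.033, where it was -0.41 with all cells), 2 of 16 immediate early and heat shock genes (median -0.38) and 1 of 6 helper cytokine genes were then lower. Of 14 chemokine receptor and homing genes, 1 was then lower and 2 higher (median -0.55). Of 16 transcription factors, 1 was lower and 1 higher (median 0.52). The helper cytokine median turned from -0.73 to 0.49, and was 0.54 over 4 genes with thinned cells. Klrg1, Il2ra and Tnfrsf9 apart, the other genes named for the largest rises were Lamc1, a laminin chain, with 26 UMIs against 1, Axl, a receptor tyrosine kinase, Cbx5, a heterochromatin protein, and Rapsn, a receptor-clustering protein.

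**Figure D3:**
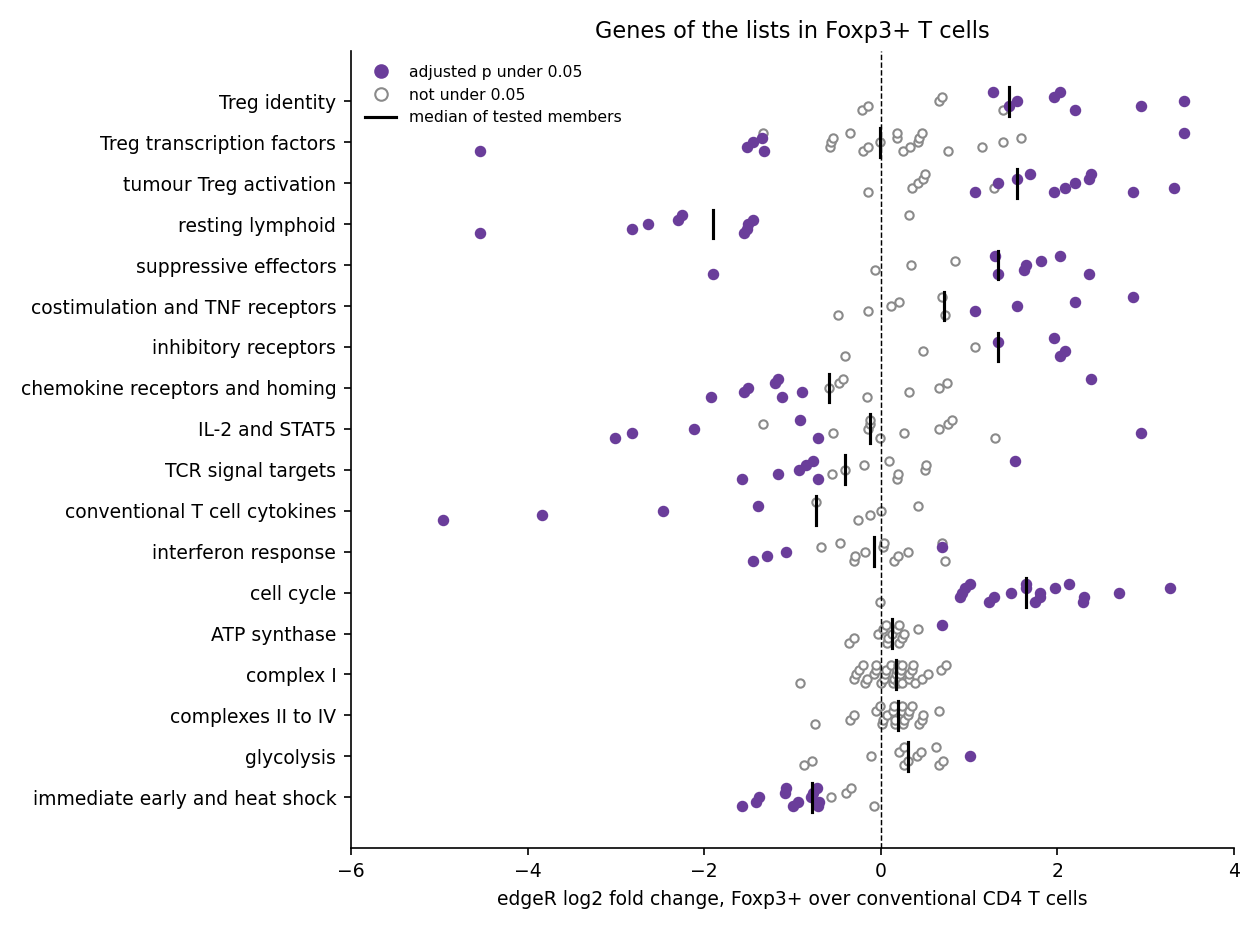
Each point is 1 tested gene of a list, placed by its edgeR log2 fold change of Foxp3+ over conventional CD4 T cells (x), filled where the adjusted p is under 0.05; black bars are medians. The medians of identity, activation and cell cycle genes lie well right of 0, that of resting lymphoid genes left of it, and the respiratory chain genes spread around 0.

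The energy lists had shares of higher genes near or below the 5.11% of all genes. Of 15 tested ATP synthase genes 1 rose, Atp5g3 by 0.69 (751 and 900 CPM against 340 and 539 CPM). None of the 35 tested genes of complex I and none of the 24 of complexes II to IV passed in edgeR, with 2 of each list at an unadjusted p under 0.05; DESeq2 called none of either list. Of 13 glycolysis genes 1 rose, Tpi1 by 1.01; without myeloid-marked cells it was 4 of 12, and without the Cd4 criterion for conventional cells 6 of 17.

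Several of the largest falls were in myeloid genes. S100a8 and S100a9, calprotectin subunits of neutrophils, were at 17.5 and 69.8 CPM in WT and 3.52 and 0 CPM in KO Foxp3+ T cells, against 1117 and 1941 CPM in WT and 163 and 180 CPM in KO conventional cells. In WT, 176 of the 194 S100a8 UMIs and 326 of the 337 S100a9 UMIs of conventional cells were in 1 cell. The 4 neutrophil markers summed to 105 and 3.52 CPM in Foxp3+ T cells and to 3709 and 363 CPM in conventional ones, and none was at 0 in the latter. Without cells whose myeloid markers exceeded 1% of UMIs (33 and 42 Foxp3+ and 55 and 95 conventional cells left), S100a9 fell by 0.66 with an adjusted p of 0.61, and S100a8, Arg1, Hmox1 and Ccl6 had too few counts to test. The counts of higher and lower genes were then 188 and 267, and Tcf7 fell by 4.54 as before. Ramp3, a receptor-modifying protein, and Evl, an actin regulator, were the other genes named for large falls.

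The libraries labelled KO and WT were then compared within Foxp3+ T cells, as a description. Of 3031 genes with at least 20 UMIs over both libraries, 406 were at least 1.5-fold higher in KO (13.4%) and 413 at least 1.5-fold lower (13.6%), with a median log2 ratio of -0.03. For 100 and 134 genes the interval also excluded 0.

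Interferon response genes stood higher in KO. Of 18 measured, 10 were at least 1.5-fold higher, 5 of them with an interval above 0, and none lower, with a median log2 ratio of 0.72, where the same list had a median of 0.14 in conventional CD4 T cells (14 measured). Bst2, the virus-tethering protein tetherin, was at 81.5 and 250 CPM (1.62, 0.78 to 2.56). Irf1 was at 192 and 295 CPM (0.62, 0.02 to 1.25), and Irf7 had 1 UMI in WT and 17 in KO, in 11 cells. Ifi27l2a, an interferon-induced gene, was at 1385 and 2742 CPM (0.99, 0.77 to 1.20), in 31 of 36 and 45 of 45 cells. Its ratio in conventional cells was 1.88. Psmb9, an immunoproteasome subunit outside the list, was at 163 and 369 CPM (1.18, 0.57 to 1.84). Isg15 was within counting error (198 and 232 CPM; 0.23, -0.39 to 0.87). Cell by cell the list had a median of 34.8 UMIs per 10000 in WT and 56.4 in KO, with ranges of 2.33 to 321 and 8.95 to 219 that overlap. The median ratio of the list was 0.36 when Cd4 UMIs were also required, 0.34 with cells thinned to 1000 UMIs and 0.33 with every cell weighted equally.

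Members of the regulatory T cell programme did not move together. Ctla4 was at 419 CPM in WT (72 UMIs in 26 cells) and 889 CPM in KO (253 UMIs in 37 cells), a log2 ratio of 1.09 (0.70 to 1.48); no cell held more than 9 of the WT or 30 of the KO UMIs. Thinned to 1000 UMIs, it was seen in 12 of 36 and 23 of 45 cells. The KO library was also higher for Ctla4 in conventional CD4 T cells, at 74.9 CPM in WT and 203 CPM in KO. Among CD8 T cells thinned to 1000 UMIs, Ctla4 was seen in 2 of 215 in WT and 39 of 342 in KO. Tnfrsf4 was 0.57 higher (0.24 to 0.90), and was at 115 and 183 CPM in conventional cells. Ikzf2 did not differ beyond counting error (0.21, -0.19 to 0.62). Tnfrsf18 was lower by 0.58 on the log2 scale, at 721 and 482 CPM (-0.58, -0.94 to -0.22), and 0.044 higher after the subtraction of free RNA scaled from haemoglobin genes, which took 44.2% of KO UMIs. Scaled from melanoma genes, which took 3.34%, its ratio was -0.57. Il2ra was at 332 and 190 CPM (-0.81, -1.37 to -0.24), yet 0.10 higher in KO among cells with a Cd4 UMI and no Cd8a UMI. It was seen in 20 of 36 WT and 25 of 45 KO cells, 55.6% of each. Klrg1 was at 221 and 77.3 CPM (-1.52, -2.34 to -0.72), and Itgae, the integrin chain CD103 of tissue-resident lymphocytes, at 157 and 42.2 CPM (-1.90, -3.01 to -0.87). Pdcd1, the inhibitory receptor PD-1, was at 239 and 130 CPM (-0.88, -1.56 to -0.20). Of 13 measured identity genes 1 was at least 1.5-fold higher and 3 lower, and of 17 activation genes 1 and 5, 3 of the latter with an interval below 0 (median -0.37).

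**Figure D4:**
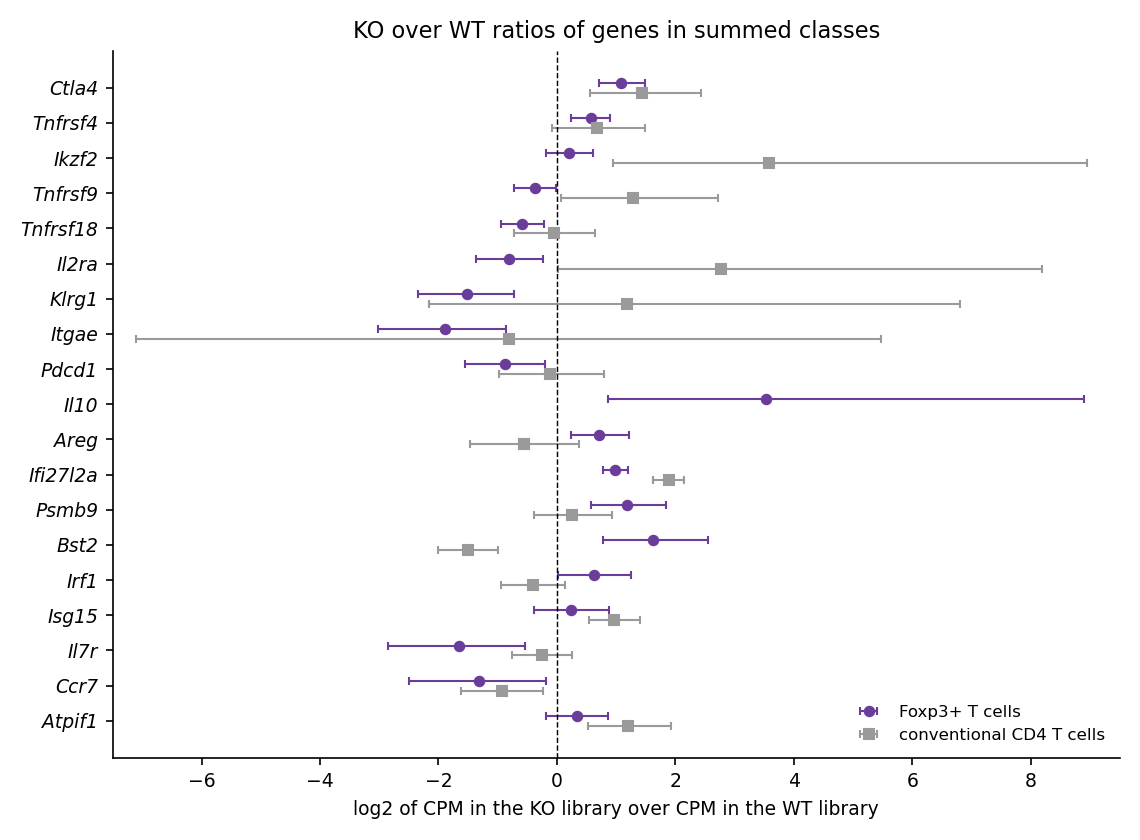
Log2 of CPM in the KO library over CPM in the WT library (x) for 19 genes, in Foxp3+ T cells (purple circles) and conventional CD4 T cells (grey squares); bars are exact 95% intervals of counting error, and a gene with no UMI in 1 library has no point. Ctla4 and most interferon genes lie right of 0 in Foxp3+ T cells, and Klrg1, Itgae and Il7r left of it.

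Il10, the gene of the suppressive cytokine interleukin 10, was seen in 1 WT cell (1 UMI) and 9 KO cells (19 UMIs, 66.8 CPM), with a log2 ratio of 3.52 and a wide interval (0.87 to 8.90). Areg was 0.72 higher in KO (0.24 to 1.21), in 13 WT and 21 KO cells. Ltb, lymphotoxin beta, was at 582 and 844 CPM (0.54, 0.19 to 0.89). Dusp5, a MAP kinase phosphatase, was at 140 and 330 CPM (1.24, 0.58 to 1.95), in 16 and 33 cells. Resting genes had a median of -0.91 over 5 measured, with Il7r at 122 and 38.7 CPM (-1.66, -2.86 to -0.54). Respiratory chain genes had small median ratios. Of 15 ATP synthase genes none passed 1.5-fold (median 0.13). Of 35 complex I genes 4 were at least 1.5-fold higher, all with an interval above 0, and none lower (median 0.09). Among them was Ndufs7 at 34.9 and 109 CPM (1.64, 0.36 to 3.19). Over all 3031 genes, 406 were at least 1.5-fold higher, 100 of them with an interval above 0. In conventional cells the ATP synthase and complex I medians were 0.37 and 0.45. The 11 glycolysis genes had a median of -0.39, and none passed 1.5-fold with at least 20 UMIs; the median in conventional cells was -0.40.

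Other genes with the largest ratios rested on few cells. Lta, lymphotoxin alpha, had 2 UMIs in WT and 30 in KO, 24 of them in 1 cell. The chemokine gene Ccl1 had 42 in WT, 28 of them in 1 of 5 cells, and 1 in KO. Batf3, a transcription factor, had 18 in WT, 13 of them in 1 cell, and 2 in KO. Vcan, described above, had 1 UMI in KO. Penk was in 6 WT and 4 KO cells. Eif3l, Mt2, Pdcl3 and Psmg4 were named for being higher in KO (27, 35, 21 and 24 UMIs against 3, 5, 2 and 3), and Rcsd1, Mettl26 and Nudc for being lower (11, 8 and 9 UMIs against 25, 20 and 21). The mitochondrial gene mt-Atp8 was also lower (87.9 against 390 CPM), but it overlaps mt-Atp6, so its reads may be split between them.

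**Figure D5:**
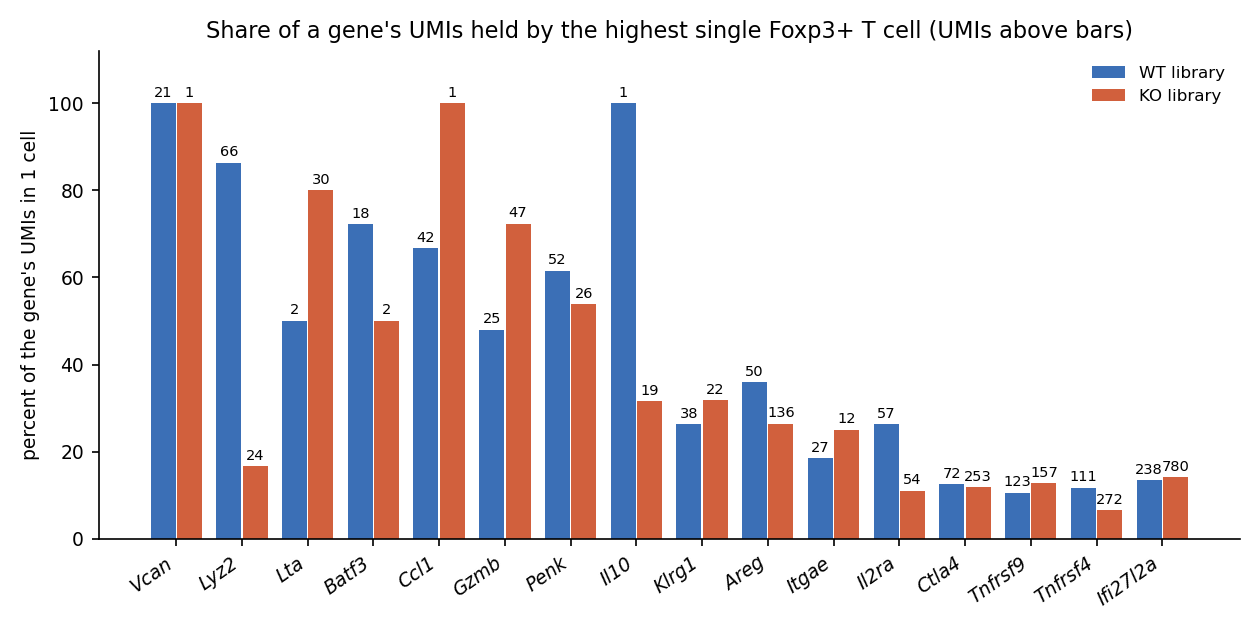
Share of a gene's UMIs in Foxp3+ T cells held by the single highest cell (y, percent), for WT (blue) and KO (orange); the number above a bar is the gene's UMI count in that library. Vcan, Lyz2, Lta, Batf3 and Ccl1 lie mostly in 1 cell of the library where they are high, while Ctla4, Tnfrsf4, Tnfrsf9 and Ifi27l2a are spread over many.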

How the data were processed

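Raw UMI counts per barcode and gene were deposited for 2 RNA libraries (35152477 WT and 24385843 KO UMIs), with counts of reads and UMIs per receptor contig for 2 TCR libraries. The submitters' processing notes name Cell Ranger 3.1.0, Seurat 3.2.0, R 3.6.1 and mm10, with no settings. Barcodes with at least 1000 UMIs, 500 genes and at most 10% mitochondrial UMIs were kept; doublets were removed only in an alternative. The members and gene lists were chosen with earlier results of these data known.

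Counts were summed per library and class and tested with edgeR 4.0.16 (glmQLFTest, TMM, library as block; filterByExpr with a minimum count of 10; Benjamini-Hochberg over all genes tested), leaving out the selecting genes and Cd4. It was also run on simulated counts with no library effect and no gene carried mostly by a single cell. That run does not check the calls made here. KO over WT ratios have exact conditional binomial intervals, levels Poisson and shares Clopper-Pearson intervals, all at 95% and for counting error only. Genes were named by rule: the 15 largest rises and 10 largest falls past the threshold, the 10 KO over WT ratios farthest from 0 by interval in each direction, and list members. The rises and falls had to have the same direction in both libraries. The KO over WT genes needed a CPM above that of the empty droplets in the library where they were higher. Alternatives changed filters, cells kept, normalization, depth, free RNA and tools (DESeq2 1.42.0); 7 were chosen after seeing the data. TCR chains were those called productive and of high confidence.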

Additional observations from a re-analysis of the deposited data

Results flagged for a closer look

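Several genes differed between the libraries in how Foxp3+ T cells compared with conventional CD4 T cells. None of these differences was tested, since each genotype had 1 library; the values are the log2 ratio of Foxp3+ to conventional in KO minus that in WT. Foxp3+ T cells were higher in WT and lower in KO for Nr4a2 (-1.49; 0.89 in WT and -0.60 in KO), Ifi27l2a (-0.90; 0.74 and -0.16), Hspa1a (-1.20; 0.47 and -0.73), H2-Ab1 (-2.13; 1.47 and -0.66), Cd74 (-1.95; 1.57 and -0.37) and Ccl1 (-12.10; 3.82 and -8.28). For Ccl1, 210 of the 334 UMIs of KO conventional cells were in 1 cell.

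For 5 other genes the KO over WT ratio had opposite signs in the 2 classes, again untested. The difference was -3.57 for Il2ra, which was lower in KO Foxp3+ T cells and higher in KO conventional cells, and -1.66 for Tnfrsf9 with the same directions. Conventional cells held only 1 Il2ra UMI in WT and 12 in KO. One KO conventional cell held 5 of those 12, and also 11 Tnfrsf9 and 16 Ctla4 UMIs. The difference was 3.11 for Bst2, where 52 of 88 UMIs of WT conventional cells were in 1 cell. It was -3.19 for Lyz2, where 57 of 66 UMIs of WT Foxp3+ T cells were in 1 cell, and -3.42 for Apoe.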

How the results depend on the processing

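The log2 share of Foxp3+ T cells kept its value within counting error under the other cell filters, and was 0.77 with all barcodes as the denominator. Against conventional CD4 T cells, the genes higher and lower were 0 and 0 at 2000 UMIs and 800 genes, 45 and 76 where Cd4 and no Cd8a was required, 433 and 539 without the Cd4 criterion for conventional cells, 39 and 26 without Mki67 or Top2a cells, 52 and 62 with thinned cells, and 13 and 23 by DESeq2. The test pairs the classes by library, since both come from the same pool; with no replicate block, 105 and 126 genes were called. Of 50 genes followed, none reversed: 494 tested values kept their call and 92 lost it. A gene that a setting could not test, or that had no adjusted p there, was not counted. Thus by DESeq2 only 15 genes kept their call and 10 lost it, and with thinned cells 16 and 1. The 89 values from 1 library alone, which have no test, kept their direction. This was fixed in advance for genes named by the largest rises and falls, which had to point the same way in both libraries. The other genes followed had passed the threshold over the same 2 libraries, so these values are no separate check. The percentage of genes 1.5-fold higher in KO was 15.6 at 5% mitochondrial UMIs, 15.7 with 2 Foxp3 UMIs, 17.1 with Cd4 required, 15.1 thinned, 17.2 by mean single-cell CPM, 14.8 by median of ratios, 19.3 after free RNA subtraction, 18.1 from 10 UMIs and 9.13 from 40 UMIs. The percentage lower was 12.3 with 2 Foxp3 UMIs, 16.2 with Cd4 required, 15.1 without Mki67 or Top2a cells, 17.7 by mean CPM, 12.3 by median of ratios, 23.9 after free RNA subtraction, 18.5 from 10 UMIs and 8.37 from 40. The interferon median was 0.57 at 5% mitochondrial UMIs, 1.02 with 2 Foxp3 UMIs, 0.36 with Cd4 required, 1.00 without Mki67 or Top2a cells, 0.43 without myeloid-marked cells, 0.34 thinned and 0.33 by mean CPM. The activation median was -0.25 without likely doublets, -0.63 without Mki67 or Top2a cells, -0.036 thinned and 0.11 after free RNA subtraction. The resting median was -0.32 by mean CPM and -0.41 from 10 UMIs. Of single KO over WT ratios, Tnfrsf18 (0.044) and Tnfrsf9 (0.26) reversed after free RNA subtraction, and Il2ra (0.10) with Cd4 required. That subtraction, scaled from haemoglobin genes, took 44.2% of KO UMIs on the strength of 24 UMIs in empty droplets; scaled from melanoma genes, an alternative added after seeing the data, it took 3.34% and gave -0.57 for Tnfrsf18 and -0.36 for Tnfrsf9. Apart from what a setting removes by construction, the cause was not tested. With 81 cells, ratios were given only for genes with at least 20 UMIs, except where the UMIs are printed.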
